A study of Arabidopsis thaliana with 9 samples.

Results

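In 70 Arabidopsis genes, the transcript isoform with the highest share of the gene's RNA in wild-type seedlings, called dominant here although it held as little as 27.8%, lost at least 15 percentage points of the gene's RNA in each of 2 splicing mutants, smd1b and prp39a. A gene was taken when its total was at least 5 TPM on average in each genotype, when the isoform with the highest mean share in wild type fell by at least 15 points in both mutants, and when all 6 mutant libraries lay below all 3 wild-type libraries. TPM scales the transcripts of each library to the same total, and an isoform's share is its TPM as a percentage of the summed TPM of its gene. The table held 82190 isoforms of 34212 genes, of which 15434 genes reached the minimum and 10843 of those had at least 2 isoforms. The 70 genes are 0.646% of these 10843. The genes were chosen by these shares in the mutants against wild type, so the shares are described below without a test.

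Whole seedlings of accession Col-0 aged 14 days and grown on 1/2MS medium gave polyadenylated RNA for 9 libraries. There were 3 biological replicates each of wild-type plants, of plants carrying the allele smd1b-3 and of plants carrying prp39a-3, the insertion SAIL_1249A03. No treatment was named for any group, and each mutant is represented by a single allele, so other changes in that line cannot be told apart from the named gene. The study's title names transgene silencing after transcription as the process in which these spliceosome components were examined.

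Introns are removed by the spliceosome, and its U1 particle is the first to bind, by pairing with the 5′ splice site at the start of an intron. SmD1 proteins belong to the ring of Sm proteins that forms the core of U1 and of most other spliceosomal particles. PRP39, first known from yeast, is a protein of the U1 particle. In plants the commonest form of alternative splicing leaves an intron in the mature RNA, and choices between nearby splice sites, skipped exons and alternative ends make up the rest.

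The named mutations were visible in the libraries. SMD1B (AT4G02840) stood at 52.3 ± 1.81 TPM in wild type (SD, n = 3) and was listed at 0, 0.138 and 0 TPM in smd1b. PRP39A (AT1G04080) stood at 51.2 ± 3.46 TPM in wild type (SD, n = 3) and at 5.44, 5.48 and 5.58 TPM in the prp39a libraries. The leaf genes RBCS1A, CAB2 and PSBO1 and the root gene PYK10 lay between 1861 and 8508 TPM, and the floral genes AP1, AP3 and PI were below 1 TPM in every library. Markers of a tissue did not move together. Of the leaf genes, CAB2 averaged 4061 TPM in wild type, 2965 in smd1b and 5183 in prp39a, RBCS1A 7640, 8044 and 7507, and PSBO1 4128, 3963 and 4460. Of the genes taken as root markers, which need not be limited to roots, GL2 averaged 6.75, 9.09 and 11.7 TPM, PYK10 2884, 2988 and 2092, and AT5G17820 113, 90.3 and 97.6. Their part in the results below was not tested. The 10 most abundant genes took between 7.17% and 10.2% of the TPM. In whole seedlings a fall in an RNA may come from fewer cells of a type or from less RNA per cell, and these cannot be told apart.

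Several of the genes can be shown by the splice sites that separate their transcript models in RefSeq (assembly TAIR10.1). Names in the deposited table that end in a point and a number were matched to RefSeq by that name, and names such as P1 or ID3 were not matched to any model. The lost isoform had a RefSeq name in 12 of the 70 genes. The sites below were chosen because they lie in coding sequence and separate a lost or gained isoform from the gene's other models. Each 5′ site is printed with 10 exon bases and 15 intron bases, and the capitals mark the last 3 exon bases and the first 6 intron bases. Each 3′ site is printed with 15 intron bases and 10 exon bases, and the capitals mark the AG that ends the intron.

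The lost isoform of PRP40A, a relative of a yeast U1 protein, removes intron 27 of 27 at chr1:16982633-16982707 (plus strand), while the other RefSeq model ends inside that intron. The lost isoform of AT1G73320, a methyltransferase, removes intron 3 of 4 at chr1:27566101-27566180 (minus strand), and the other RefSeq model keeps it. The lost isoform of AT3G63510, an FMN-linked oxidoreductase, ends its intron 1 of 11 at the nearer of a pair of 3′ sites (chr3:23450706-23450778, plus strand), and the other RefSeq model ends it further on (chr3:23450706-23450804). The isoforms that gained most in PRP40A, AT1G73320 and AT3G63510 have no RefSeq name. Whether the use of these sites changed in the mutants was therefore not determined. In AT5G08340, a nucleotidylyl transferase family gene, the RefSeq model that gained share removes intron 5 of 5 at chr5:2685542-2685667 (plus strand), and the other RefSeq model keeps it.
PRP40A intron 27, 5′ site: atcaagaAAGGTAGGTacaccctag
AT1G73320 intron 3, 5′ site: cctgattACGGTAATCatctcggtt
AT3G63510 intron 1, 3′ site of the lost isoform: atttttgctctccAGcgtcgccccg
AT3G63510 intron 1, 3′ site of the other model: tgatggattggacAGataatcatta
AT5G08340 intron 5, 5′ site: aacagagGAGGTACGActctgtaat

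SDE5 (SILENCING DEFECTIVE 5, AT3G15390), which Arabidopsis needs for transgene silencing and for trans-acting small RNAs, has RefSeq models that differ by a 26-base exon at chr3:5198839-5198864 (minus strand). Model AT3G15390.1 contains it and model AT3G15390.3 skips it. The isoforms of SDE5 in the deposited table carry other names, so which of them contain this exon was not determined. It is printed with the last 2 intron bases before it and the first 2 after it in lower case and the exon in capitals, because 26 is not a multiple of 3 and its skipping therefore shifts the reading frame.
SDE5 exon: agGCGTATGCGGATATGATGTGAAGAAGgt

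Across the 70 genes the lost isoform had a median share of 62.1% in wild type, 42.7% in smd1b and 35.1% in prp39a. The median over the genes was 62.6, 60.5 and 61.3% in the 3 wild-type libraries, 40.8, 40.9 and 42.3% in the smd1b libraries, and 34.1, 34.5 and 38.3% in the prp39a libraries. The falls in mean share ran from 15.1 to 42.4 points in smd1b, with a median of 18.9, and from 15.2 to 47.3 points in prp39a, with a median of 24.6. Replicates of 1 genotype spread less than this in most genes, with a median SD of 3.88 points in wild type, 4.71 in smd1b and 4.10 in prp39a. The rule favoured this, since it left out genes in which a mutant library overlapped a wild-type one. The largest SD was 20.04 points, for AT1G26130 in smd1b. The lowest wild-type share exceeded the highest mutant share by a median of 9.71 points, by less than 2 points in 4 genes (AT4G37095, WAVE5, AT1G03960 and AT3G11890) and by at least 10 points in 32.

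**Figure D1:**
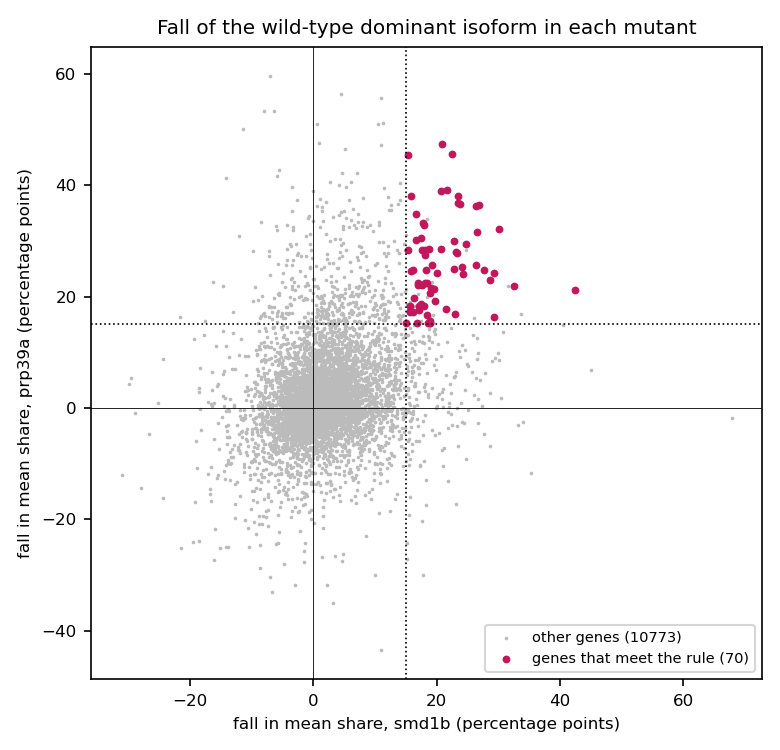
Fall in mean share of the wild-type dominant isoform in smd1b (x axis) and prp39a (y axis), in percentage points, for the 10843 genes with at least 2 isoforms and 5 TPM in each genotype. The 70 genes that meet the rule (red) lie by construction above and to the right of the dotted lines at 15 points, and most of the others (grey) lie near 0.

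A fall of at least 15 points was more frequent in prp39a, where 533 of the 10843 genes showed one, than in smd1b, where 273 did. Rises of at least 15 points numbered 113 in prp39a and 47 in smd1b. In 87 genes the dominant isoform fell by 15 points in both mutants, and 17 of these were left out because a mutant library overlapped a wild-type one. In the other direction, 10 genes rose by 15 points in both, 9 of them with no overlap. Each isoform was chosen as the highest in wild type, which favours falls. Its median wild-type share was 91.3% over all 10843 genes, so most could not rise by 15 points. Nothing is therefore read from the numbers of falls against rises. The 2 comparisons share their wild-type libraries, so no overlap between them was tested.

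Values ran on across the threshold. Just inside it were AT1G73320, with a smaller fall of 15.1 points, the peptidyl-prolyl isomerase gene AT4G26555 with 15.2 and the protein kinase gene AT5G58540 with 15.3. Just outside were SNC4 with 14.9, AT1G17990 with 14.9 and ALG12 with 14.8.

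**Figure D2:**
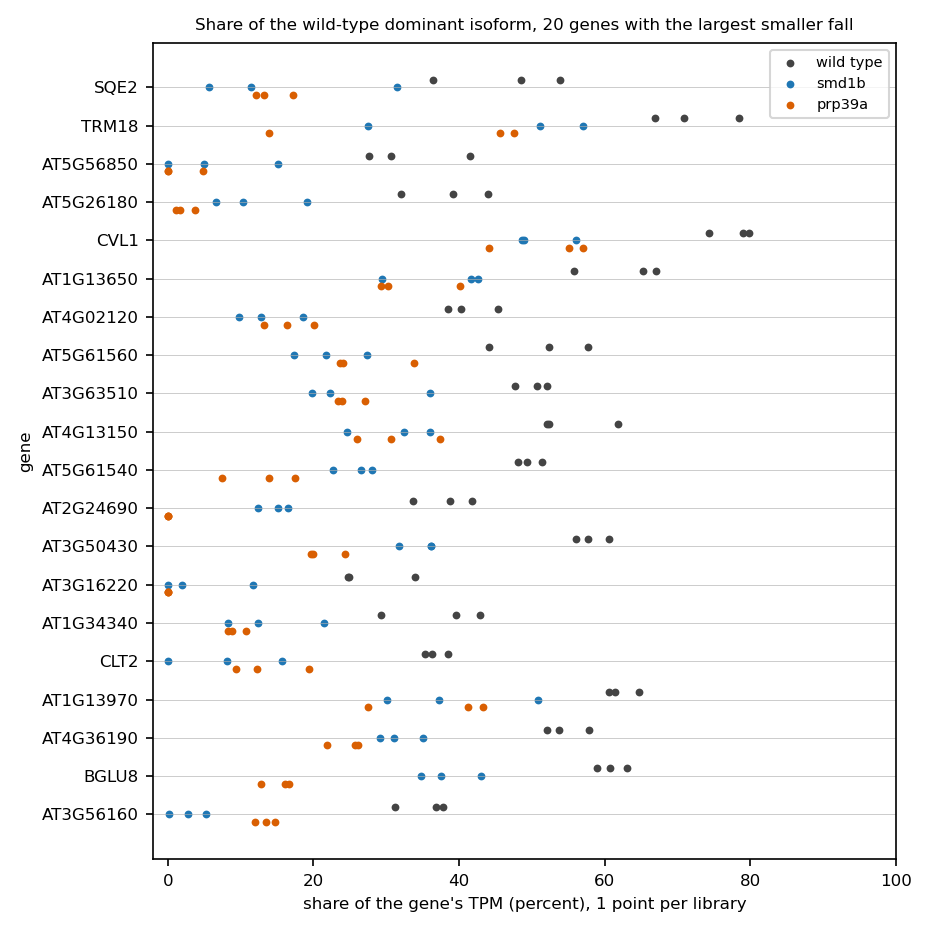
Share of the wild-type dominant isoform (percent of the gene's TPM, x axis) in each of the 9 libraries for the 20 genes whose smaller fall was largest; each point is 1 library. In every gene the wild-type points (black) lie to the right of all smd1b (blue) and prp39a (orange) points, as the rule required.

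The genes with roles in RNA processing, silencing and translation numbered 7 of the 70, and their median falls were 19.0 points in smd1b and 18.6 in prp39a. In SDE5 the isoform P1 held 62.4, 60.4 and 71.7% of the gene's TPM in wild type, 42.5, 29.8 and 57.2% in smd1b, and 25.3, 19.6 and 32.2% in prp39a. All prp39a libraries lay below all smd1b libraries except that smd1b replicate 2, at 29.8%, was below prp39a replicate 3. The isoform P3 of SDE5 was listed at 0 in all 3 wild-type libraries, and it held 12.9, 27.8 and 6.37% in smd1b and 34.4, 43.5 and 14.2% in prp39a. P3 was thus highest in prp39a replicate 2 and lowest, among the mutants, in smd1b replicate 3, the library in which P1 was highest. The total of SDE5 was low and similar, at 5.82 ± 0.433 TPM in wild type, 6.64 ± 1.06 in smd1b and 5.74 ± 0.399 in prp39a (SD, n = 3). Without smd1b replicate 2 the fall of P1 in smd1b was 14.96 points, under the threshold.

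PRP40A (AT1G44910) was the only gene among 20 measured components of the U1 particle and the Sm core that met the rule. Of all 10843 genes 0.646% met it. Its isoform AT1G44910.1 held 88.6, 82.3 and 70.03% in wild type, 61.7, 59.3 and 67.5% in smd1b and 63.2, 55.3 and 66.5% in prp39a. The gap between the groups was 2.56 points, and wild-type replicate 3 was the nearest to the mutants. The isoform ID2 rose from 8.68, 9.22 and 16.0% in wild type to 28.2, 27.8 and 19.8% in smd1b and 18.1, 26.3 and 20.7% in prp39a. Without wild-type replicate 1 the falls of AT1G44910.1 were 13.4 and 14.5 points, both under the threshold.

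**Figure D3:**
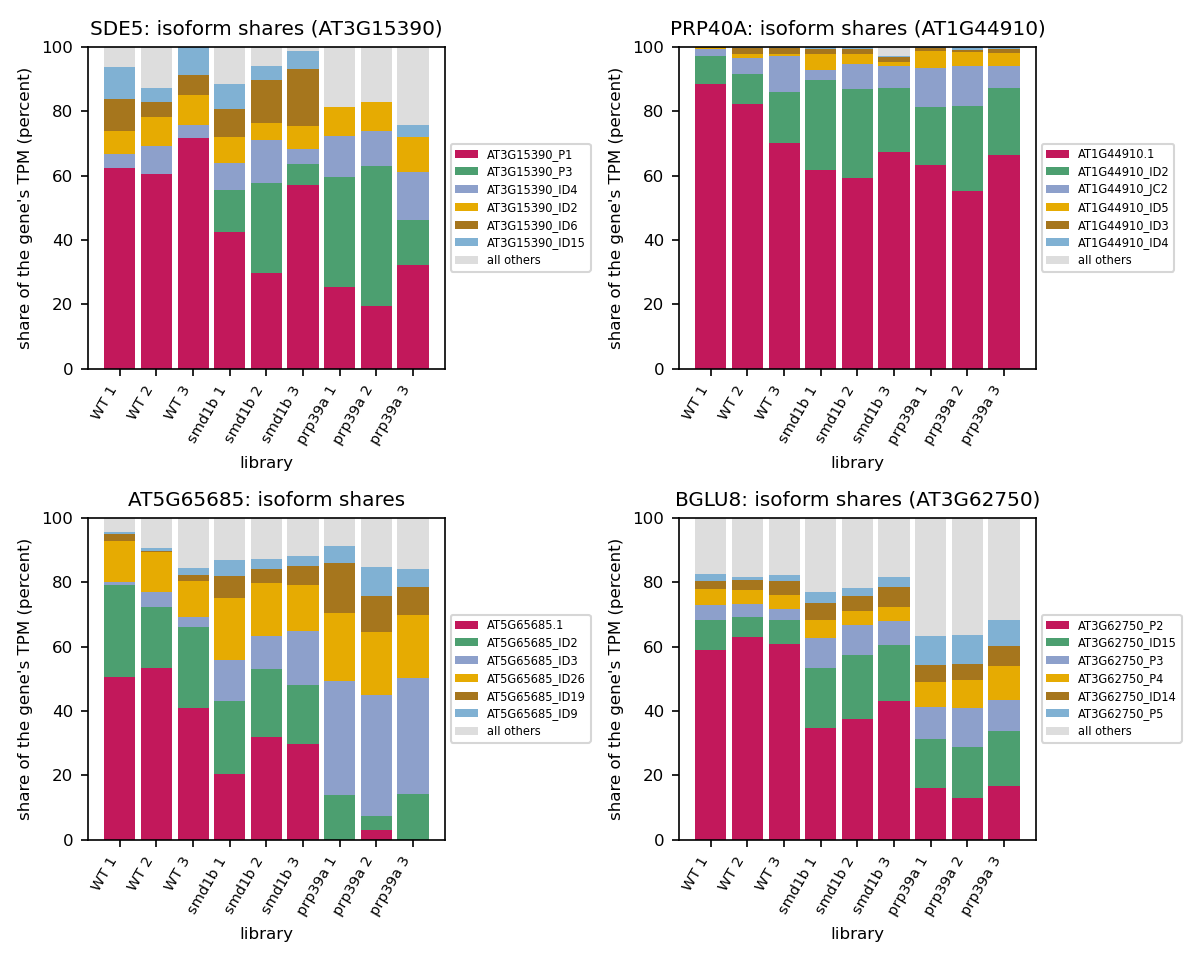
Shares of the 6 leading isoforms (colours) and of all other isoforms (grey) as stacked bars, in percent of the gene's TPM, for SDE5, PRP40A, AT5G65685 and BGLU8 in the 9 libraries (x axis). The wild-type dominant isoform is the red segment at the foot of each bar; in SDE5 the green segment, P3, is absent from the 3 wild-type bars and present in all 6 mutant bars.

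In AT3G02065, a P-loop nucleoside triphosphate hydrolase gene, both isoforms could be matched to RefSeq. AT3G02065.2 held 84.5, 76.1 and 90.4% in wild type, 51.0, 53.7 and 58.6% in smd1b, and 68.0, 61.6 and 72.6% in prp39a. AT3G02065.3 held 10.3, 22.4 and 7.69% in wild type, 46.9, 43.5 and 35.2% in smd1b, and 26.7, 33.7 and 25.4% in prp39a. Here the smd1b libraries lay furthest from wild type and the prp39a libraries in between, with no overlap. The gaining model starts inside the first intron of the losing one, so the models differ in their first exon, and both have 1518 coding bases. The fall in prp39a was under 15 points without wild-type replicate 3 (12.9 points) or prp39a replicate 2 (13.4 points).

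The group has 4 further genes. The tRNA-splicing endonuclease gene SEN1 went from 82.8 ± 5.30% in wild type to 65.1 ± 8.48% in smd1b and 54.4 ± 6.59% in prp39a. AT4G18460, a D-Tyr-tRNA deacylase gene, went from 86.6 ± 3.20% to 67.3 ± 5.34% and 60.9 ± 4.47%. The RRM protein gene AT1G01080 went from 82.7 ± 1.32% to 63.8 ± 4.15% and 67.1 ± 1.04% (SD, n = 3 for each of these 3 genes). Without smd1b replicate 1 the fall of SEN1 in smd1b was 14.9 points, and without smd1b replicate 3 or prp39a replicate 2 its total was under the TPM minimum. In AT5G15270, a KH-domain RNA-binding protein gene, the isoforms P1 and P2 were nearly equal in wild type, at 48.5% and 48.3%, and P2 held 61.3% in smd1b and 59.6% in prp39a. Without wild-type replicate 1 or 3, P2 became the dominant isoform of AT5G15270 and the gene no longer met the rule.

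Genes listed for other groups were counted in the same way. Over all 10843 genes 0.646% met the rule, so nothing is read from the counts in lists this small. None of 19 measured SR-type splicing factor genes, 5 nonsense-mediated decay and exon junction genes, 5 genes of polypyrimidine tract-binding and glycine-rich RNA-binding proteins and 9 clock genes did. SDE5 was the 1 of 10 measured silencing genes that did. The median fall of the dominant isoform, negative where it rose, was 2.95 points in smd1b and 3.36 in prp39a for the SR-type genes, 0.265 and -0.024 for the decay and exon junction genes, and 0.861 and 4.24 for the polypyrimidine tract-binding and glycine-rich group. It was -0.637 and -0.174 for the clock genes, 0.915 and 1.07 for the silencing genes, and -0.674 and 0.433 for the U1 and Sm genes. Over all 10843 genes it was 0.296 and 0.0622 points.

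Transcription was represented by 6 genes. AT2G24690, a B3-domain transcription factor gene, lost its isoform P2 from 38.7, 41.8 and 33.7% in wild type to 15.2, 16.5 and 12.4% in smd1b, and P2 was at or next to 0 in all 3 prp39a libraries. The 3 genotypes did not overlap. In prp39a the isoform ID5 of AT2G24690 held 55.6, 51.7 and 52.6%, against 24.6, 22.1 and 28.4% in wild type and 31.5, 24.0 and 19.0% in smd1b. In AT5G19480, a Mediator subunit gene, the isoform ID4 held 50.7, 44.8 and 51.0% in wild type, 31.2, 31.4 and 34.1% in smd1b and 15.9, 20.2 and 19.9% in prp39a. These groups were also fully separate, and ID6, which held 34.3% on average in wild type, held 47.3% in smd1b and 71.0% in prp39a. In the DNA-binding factor gene AT3G17100, with only 2 isoforms in the table, P2 went from 78.7 ± 2.76% to 59.9 ± 4.87% in smd1b and 50.1 ± 2.97% in prp39a (SD, n = 3).

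Metabolic enzymes and hydrolases were the largest group, with 20 genes, and had median falls of 18.6 points in smd1b and 25.1 in prp39a. SQE2, a squalene epoxidase of sterol synthesis, had the largest smaller fall of all 70 genes. Its isoform P1 held 36.5, 53.8 and 48.5% in wild type, 5.65, 11.4 and 31.5% in smd1b, and 17.1, 12.1 and 13.2% in prp39a. The smd1b libraries covered a wider range than the prp39a libraries, and replicate 3 of smd1b came within 5.03 points of the lowest wild-type library. The CTP synthase gene AT4G02120 lost P1 from 38.4, 45.3 and 40.3% to 9.81, 18.6 and 12.8% in smd1b and 20.1, 16.4 and 13.2% in prp39a. Both mutants lay at least 18.3 points below wild type and overlapped each other.

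In AT5G65685, a glycosyltransferase family gene, AT5G65685.1 held 50.7, 53.5 and 40.9% in wild type and 20.5, 31.9 and 29.9% in smd1b. In prp39a it held 3.02% in replicate 2 and next to none in the other two replicates, the largest fall in prp39a of the 70 genes. ID3 of the same gene held 1.05, 4.64 and 3.07% in wild type, 13.0, 10.5 and 16.9% in smd1b, and 35.3, 37.7 and 36.0% in prp39a, so the genotypes were in the reverse order. BGLU8, a beta-glucosidase gene, was the most abundant of the 70, with 108 ± 5.77 TPM in wild type (SD, n = 3). Its isoform P2 held 58.9, 63.1 and 60.7% in wild type, 34.7, 37.6 and 43.1% in smd1b, and 16.1, 12.9 and 16.7% in prp39a. No 2 genotypes overlapped, and the share lost in prp39a was spread over many isoforms, none of which gained more than ID15, from 7.64% to 16.1%.

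The other enzyme genes with large falls showed 3 patterns. AT1G34340, an alpha/beta-hydrolase gene, lost P1 from 37.2 ± 7.06% to 14.1 ± 6.78% in smd1b and 9.28 ± 1.33% in prp39a (SD, n = 3), and different isoforms held the highest mean share in each mutant. AT1G13970, annotated as a beta-hexosaminidase, exchanged a pair of isoforms: AT1G13970.1 went from 62.3% to 39.4% and 37.4%, and c2 from 32.5% to 57.5% and 50.2%. AT3G63510.1, whose 3′ site is printed above, went from 47.7, 50.7 and 52.1% to 19.7, 22.2 and 36.0% in smd1b and 27.1, 23.9 and 23.3% in prp39a. Of the isoforms of AT3G63510 that gained, ID47 held 23.2, 33.5 and 21.2% in prp39a against at most 8.79% in any smd1b library. In AT5G08340 the RefSeq model with intron 5 removed, AT5G08340.2, held 7.57, 10.8 and 10.8% in wild type, 31.0, 35.3 and 18.1% in smd1b and 25.9, 28.3 and 42.1% in prp39a. The lost isoform of that gene, ID1, has no RefSeq model, so whether its RNA moved toward removal of intron 5 was not determined. Without smd1b replicate 2 the fall of ID1 in smd1b was 14.8 points.

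Kinases, phosphatases and signalling genes numbered 12. CVL1, an inositol polyphosphate phosphatase related to the vein-pattern gene CVP2, lost P1 from 79.8, 74.3 and 79.0% in wild type to 48.7, 56.1 and 49.0% in smd1b and 44.2, 57.0 and 55.0% in prp39a. The mutants overlapped each other and were at least 17.3 points below wild type. AT5G61560, a U-box protein kinase gene, lost P1 from 52.4, 44.2 and 57.8% to 21.8, 27.4 and 17.4% in smd1b and 24.0, 33.8 and 23.7% in prp39a. Its neighbour AT5G61540, an Ntn-hydrolase gene of the protein turnover group, lies 5240 bases away and was the closest member to any other. AT5G61540 lost P1 from 49.3, 51.4 and 48.1% to 22.7, 26.5 and 28.0% in smd1b and 17.5, 7.49 and 13.8% in prp39a, and with 20 points it had the widest gap between wild type and mutants of the 70 genes. The 2 neighbours moved differently between the mutants, since the prp39a libraries of AT5G61540 all lay below its smd1b libraries and those of AT5G61560 overlapped them.

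In the transport, Golgi and cytoskeleton group, 7 genes had the highest median fall in prp39a of all groups, 36.4 points, against 23.4 in smd1b. The Golgi protein gene ATGRIP lost P1 from 57.9, 59.9 and 61.9% in wild type to 35.8, 45.8 and 52.2% in smd1b and 20.1, 10.7 and 12.4% in prp39a. The golgin gene AT3G50430 lost P1 from 60.5, 57.8 and 56.0% to 36.1, 31.8 and 36.2% in smd1b and 19.7, 19.99 and 24.4% in prp39a. Both Golgi genes were in the same order in all libraries, with wild type highest, smd1b next and prp39a lowest. The fall of ATGRIP in smd1b was under 15 points without wild-type replicate 3 (14.3) or smd1b replicate 1 (10.9).

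AT3G56160, a gene of the sodium bile acid symporter family, showed the opposite order. Its isoform P3 held 31.2, 37.8 and 36.8% in wild type, 5.22, 0.135 and 2.73% in smd1b, and 13.4, 14.7 and 11.9% in prp39a, with the genotypes fully separate. CLT2, a transporter of chloroplasts related to the chloroquine-resistance transporter, lost P1 from 35.3, 36.2 and 38.4% to 0.00905, 15.7 and 8.10% in smd1b and 9.34, 19.4 and 12.3% in prp39a. TRM18, whose symbol stands for a motif that recruits the microtubule protein TON1 and whose product RefSeq describes as like a subunit of a glycosyltransferase, was the most variable of the 20 genes plotted by library. Its P1 held 78.4, 66.9 and 70.8% in wild type, 51.1, 57.0 and 27.5% in smd1b and 45.7, 13.9 and 47.5% in prp39a, at a total of only 5.47 to 7.50 TPM on average.

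The calcium-dependent nuclease gene AtCaN2, of the enzyme group, lost P2 from 39.4, 35.5 and 38.4% in wild type to 12.4, 19.9 and 27.9% in smd1b and 5.66, 3.22 and 4.74% in prp39a. The Rossmann-fold gene AT4G00560, of the same group, lost AT4G00560.1 from 61.0, 56.5 and 58.3% to 45.3, 39.1 and 43.8% in smd1b and 20.1, 18.8 and 22.6% in prp39a. In both genes the 3 genotypes were fully separate. ID6 of AT4G00560 held 33.8% on average in wild type, 46.6% in smd1b and 75.4% in prp39a, so this isoform became the main RNA of the gene. The fall in smd1b missed the threshold for AT4G00560 without wild-type replicate 1 (14.7) or smd1b replicate 2 (14.1), and for AtCaN2 without smd1b replicate 1 (13.9).

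Among the methyltransferase, peptidase and uncharacterised genes, AT5G26180, a methyltransferase family gene, lost P2 from 44.0, 32.1 and 39.1% to 10.4, 19.1 and 6.64% in smd1b and 3.69, 1.69 and 1.19% in prp39a. AT4G36190, a serine carboxypeptidase, lost AT4G36190.1 from 52.0, 53.8 and 57.9% to 29.2, 31.0 and 35.1% in smd1b and 21.9, 26.2 and 25.7% in prp39a. In each of these genes the prp39a libraries lay below the smd1b libraries. AT5G56850, AT1G13650, AT4G13150 and the LigT-like gene AT3G16220 have little or no known function. Their lost isoforms had mean shares of 33.2, 62.7, 55.4 and 27.8% in wild type, in that order, 6.70, 37.9, 31.1 and 4.55% in smd1b, and 1.59, 33.2, 31.3 and next to 0% in prp39a. The mean was lower in prp39a in 3 of these 4 genes, but in all 4 the libraries of the mutants overlapped. The mutant means also differed by less than the replicate SD in smd1b, which was 7.69, 7.34, 5.83 and 6.32 points in the same order. In AT4G13150 the difference was also below the SD of 5.73 in prp39a.

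The lost isoform was often replaced as the most abundant. Another isoform had the highest mean share in 27 genes in smd1b and in 34 genes in prp39a. This was so in both mutants for 25 genes, and in 19 of these the same isoform led in both. In 34 genes the wild-type dominant isoform still led in both mutants, in 9 it lost its lead in prp39a alone and in 2 in smd1b alone. AT1G26130, a P-type ATPase gene, went from c1 at 62.8, 63.3 and 62.1% in wild type to 52.1, 54.9 and 18.9% in smd1b and 25.1, 21.0 and 25.4% in prp39a, so that smd1b replicate 3 alone looked like prp39a. Without that library the fall in smd1b was 9.22 points, and without prp39a replicate 1 or 3 the gene fell under the TPM minimum.

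AT4G37095, a short gene of unknown function with 2 isoforms, had the largest fall in smd1b, from 95.5 ± 6.87% to 53.0 ± 7.37% (SD, n = 3). Its prp39a libraries held 86.1, 63.0 and 73.9%, the first of them only 1.5 points below the lowest wild-type library. In LUP1, a lupeol synthase gene, isoform c1 was listed at 0 in all 3 wild-type libraries and held 8.15, 7.24 and 6.51% in smd1b and 1.54, 7.57 and 3.32% in prp39a.

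The rule chose the genes for falls in share and set only a minimum on their totals, so the sizes of these changes were not compared. The ratio of the mean total TPM to wild type had a median of 1.03 in smd1b, with a range from 0.737 to 1.49, and of 1.00 in prp39a, with a range from 0.653 to 2.27. Over all 10843 genes these medians were 1.02 and 0.962. In each mutant 36 genes were higher than wild type and 34 lower, and 65 genes stayed within 1.5-fold in both mutants. The TPM of the lost isoform itself had a median ratio of 0.669 in smd1b and 0.594 in prp39a, and it was below wild type in all 70 genes in smd1b and in 67 in prp39a. This largely follows from the rule, since a lower share of a similar total is a lower TPM. The exceptions in prp39a, where the isoform's own TPM was not lower although its share was, were AT4G36190, LUP1 and AT3G23480.

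**Figure D4:**
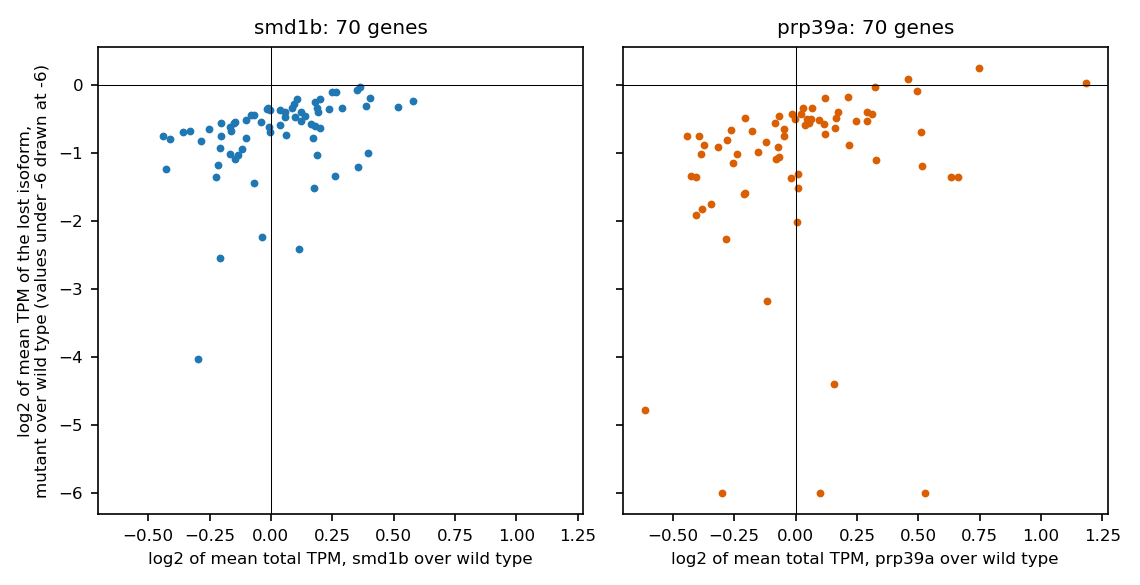
For each of the 70 genes, log2 of the mean total TPM over wild type (x axis) and log2 of the mean TPM of the lost isoform over wild type (y axis), in smd1b (left) and prp39a (right). The points spread narrowly around 0 on the x axis and lie almost all below 0 on the y axis; AT4G36190 is the point furthest right in prp39a.

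The totals that moved by more than 1.5-fold did so in prp39a alone. AT4G36190 had 39.0, 38.1 and 38.1 TPM in wild type, 41.0, 45.1 and 44.2 in smd1b, and 93.7, 82.4 and 85.2 in prp39a, and was the 1 gene of the 70 with a change of 2-fold or more. AT3G23480, a cyclopropane fatty acid synthase gene, had 16.8, 17.7 and 17.9 TPM in wild type, 12.7, 17.4 and 17.1 in smd1b, and 29.6, 29.5 and 28.8 in prp39a. In both genes the 3 prp39a libraries stood above the other 6. The others were BGLU8 (1.55-fold) and AT1G34340 (1.58-fold), both higher, and AT5G26180 (0.653-fold), which was lower. By limma with Benjamini-Hochberg adjustment, 5 of the 70 totals passed an adjusted p of 0.05 in smd1b against wild type, where 6.63% of all genes did, and 12 passed in prp39a, where 4.13% did; the rule used these contrasts, and nothing is read from the counts.

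The comparison of the mutants with each other was not part of the rule, beyond the fall that both had to show, and was tested. The log2 ratio of each lost isoform to the other isoforms of its gene was compared between prp39a and smd1b with limma over all 22040 isoforms that could be tested, with Benjamini-Hochberg adjustment over all of them. Of the 70 lost isoforms 13 passed (18.6%), against 13.7% of all isoforms and 15.6% of the 6785 wild-type dominant isoforms that could be tested among the 10843 genes, so the share of calls was near the background. By direction, 12 (17.1%) were lower in prp39a, against 6.69% of all isoforms and 8.83% of the dominant ones, and 1 was higher, against 7.03% and 6.74%. Without regard to the test, the mean share was lower in prp39a than in smd1b in 53 genes and higher in 17, and the means lay within 5 points of each other in 36. The rule took only isoforms that fell in both mutants, and the background isoforms were not chosen in that way. Falls of at least 15 points were also more frequent in prp39a over all genes, 533 against 273. Nothing is therefore read from either split by direction. Since 0.5 TPM was added to each value, log2 ratios of isoforms close to 0 depend on that number.

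**Figure D5:**
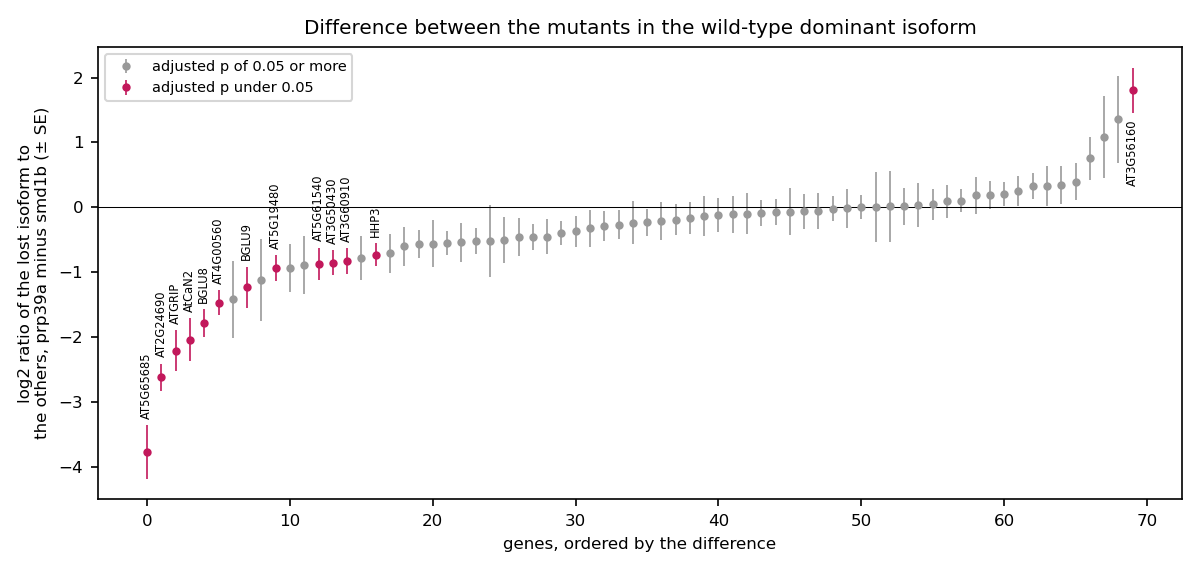
Difference between prp39a and smd1b in the log2 ratio of the lost isoform to the gene's other isoforms (y axis, error bars SE) for the 70 genes in order of the difference (x axis). The 13 genes with an adjusted p under 0.05 are named and in red; 12 lie below 0 and AT3G56160 lies above.

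The clearest differences were those of isoforms almost lost from prp39a. The difference, prp39a minus smd1b, was -2.62 ± 0.209 for AT2G24690 (SE, limma adjusted p = 0.000157), and that of AT5G65685 was -3.78 ± 0.41 (adjusted p = 0.000745). The differences of BGLU8 (-1.79 ± 0.215, adjusted p = 0.00119), AT4G00560 (-1.47 ± 0.194, adjusted p = 0.00185), ATGRIP (-2.22 ± 0.317, adjusted p = 0.00267) and AtCaN2 (-2.05 ± 0.331, adjusted p = 0.00477) were in the same direction. In each of these 6 genes all 3 prp39a libraries lay below all 3 smd1b libraries. AT3G56160 was the 1 gene in the other direction, with a difference of 1.81 ± 0.35 (adjusted p = 0.0103) and all 3 prp39a libraries above all 3 smd1b libraries. AT5G19480 had -0.94 ± 0.199 (adjusted p = 0.0152), which became 0.0548 without prp39a replicate 1. The other 5 calls, for AT3G50430, AT3G60910, HHP3, BGLU9 and AT5G61540, each missed the threshold without at least 1 library.

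Several genes with large falls in both mutants did not pass this test. SDE5 had a difference of -0.93 ± 0.37 (limma adjusted p = 0.134), AT3G02065 of 0.75 ± 0.33 (adjusted p = 0.172) and PRP40A of -0.07 ± 0.362 (adjusted p = 0.932). For SQE2 the estimate was 0.00 with an SE of 0.536, for CVL1 0.04 ± 0.239 and for AT4G13150 0.01 ± 0.284. An SE of this size leaves room for differences that 3 libraries a group could not show.

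Totals were compared between the mutants in the same way over 20585 genes, of which 21.1% passed. Of the 70 genes 23 passed (32.9%). Of these 11 were higher in prp39a, against 6.39% of all genes, and 12 lower, against 14.7%, and with TPM divided by size factors 24 passed, 15 higher and 9 lower. AT4G36190 was 0.99 ± 0.0668 higher on the log2 scale in prp39a than in smd1b (limma adjusted p = 7.15e-05), AT3G23480 0.89 ± 0.111 higher (adjusted p = 0.00151) and AT4G30310, a carbohydrate kinase gene, 0.44 ± 0.058 higher (adjusted p = 0.00198). AT4G30310 had 56.1, 58.2 and 57.3 TPM in wild type, 47.6, 45.9 and 47.3 in smd1b, and 67.6, 61.0 and 63.0 in prp39a, with wild type between the mutants. AT4G02550, a Myb/SANT-like factor gene, changed by -0.43 ± 0.064 (adjusted p = 0.00343), with 14.8, 15.6 and 14.7 TPM in wild type, 15.2, 16.0 and 15.9 in smd1b and 11.1, 11.4 and 12.0 in prp39a. BGLU9 changed by -0.58 ± 0.0903 (adjusted p = 0.00425), with 19.4, 17.5 and 15.6 TPM in wild type, 19.1, 19.9 and 20.8 in smd1b and 12.8, 12.5 and 14.3 in prp39a. In AT4G02550 and BGLU9 the prp39a libraries lay below all 6 others. The number of the 70 totals that passed was 13 without smd1b replicate 3 and 13 without prp39a replicate 1.

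In annotation the 70 genes had more transcripts than the 10843. The rule did not use these numbers directly, but they are not independent of it. A fall in share needs other isoforms to take it up, so nothing is read from these differences. They had a median of 7 isoforms in the table against 3, of 3 RefSeq transcripts against 2, and of 9 introns in RefSeq models against 6, while the median span of the gene was 2753 bases against 2719. RefSeq models of 52 of the 70 genes (74.3%) include an intron that another model of the gene keeps, against 39.7% of all. Among genes with at least 3 RefSeq transcripts this was 40 of 45 (88.9%) against 2640 of 3458 (76.3%), a smaller gap. Of the values that the rule did use, the wild-type dominant isoform held a median of 62.1% in the 70 genes and 91.3% over all. The median wild-type total, which the rule bounded from below, was 14.9 TPM (range 5.53 to 108) against 23.0.

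The 5′ splice sites of these genes were close to those of other genes in each measure taken. Of 666 introns in the RefSeq models of the 70 genes 98.0% began with GT, against 98.6% of 81642 introns in all. The intron start GTAAGT, read on the gene's strand only, was found in 61 of the 666 (9.16%) and in 7310 of the 81642 (8.95%). Against the 9 bases CAGGTAAGT, which span the exon end and the intron start and contain that motif, the sites matched at 5.86 positions on average in the 70 genes and at 5.92 in all, and 64.6% against 67.3% matched at 6 or more. Of the sites printed above, that of PRP40A matched at 7 positions, that of AT5G08340 at 6 and that of AT1G73320 at 5. These counts cover every annotated intron of the genes, not the introns that changed, which the isoform names do not give. The genes were spread over all chromosomes, with 17, 10, 16, 15 and 12 on chromosomes 1 to 5, and 26 of them (37.1%) overlap another annotated gene, against 33.0% of all. Whether strand was used in the quantification is not stated, so reads of overlapping genes may not have been told apart.

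The naming of the isoforms gave a further description. Names with P made up 50 of the 70 lost isoforms (71.4%) and 75.7% of all dominant isoforms, and names with ID made up 6 (8.57%) and 3.56%. Among the isoforms that gained most, names with ID were the commonest, with 28 of 70 in smd1b and 33 of 70 in prp39a. The share of ID names among isoforms that are not dominant was not computed, so nothing is read from these counts. What these classes stand for is not given in the sources used here. The isoform that gained most in at least 1 mutant had a RefSeq name in 8 genes, among them AT3G02065, AT5G08340, AT1G26130 and CLT2.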

How the data were processed

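Per the labels, polyA RNA of 9 seedling libraries was sequenced after a stranded mRNA kit. The deposited values are TPM per isoform; the column names carry the name kallisto, for which no version or transcript set was found in the labels or headers. The submitters' processing notes list TAIR10, Trimmomatic, TopHat2, featureCounts and DESeq2 without roles. Columns sum to the same total, so depth is unknown and no count test or counting interval was possible. Such estimates divide reads shared by similar isoforms or gene copies, which makes values of BGLU8, BGLU9, LUP1, SQE2 and AT4G36190, members of families, less certain. Another 6 columns of values were not used.

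Shares, totals and falls were computed from the deposited TPM. limma 3.58.1 (R 4.3.3) was fitted to all 9 libraries, with a mean-variance trend, on log2 of (isoform TPM + 0.5) over (other isoforms' TPM + 0.5) and on log2(total TPM + 0.5), and was tested on simulated data. Genes whose mean reached 1 TPM and isoforms whose mean share lay between 0.05 and 0.95 were kept; tests were two-sided, with Benjamini-Hochberg adjustment.

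The genes, the gene lists and the alternatives were chosen with earlier results of these data known, and roles were assigned from RefSeq product names after the genes were known. Genes were named for the 20 largest smaller falls, the 8 smallest adjusted p for isoforms and 5 for totals, list membership and the threshold; SEN1, AT3G02065, AT5G15270, AT1G01080, AT4G18460, AT3G17100, AT5G08340, AT1G26130, AT4G37095, LUP1 and the genes with the narrowest gaps were chosen after their values were seen.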

Additional observations from a re-analysis of the deposited data

Results flagged for a closer look

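The lost isoforms of 13 genes differed between the mutants by limma on the log2 ratio to the gene's other isoforms. The difference, prp39a minus smd1b, was -2.62 for AT2G24690, -3.78 for AT5G65685, -1.79 for BGLU8, -1.47 for AT4G00560, -2.22 for ATGRIP, -2.05 for AtCaN2 and -0.94 for AT5G19480, each with all 3 prp39a libraries below all 3 smd1b libraries. It was 1.81 for AT3G56160, with all 3 prp39a libraries above.

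The other 5 differences passed with all libraries and missed an adjusted p of 0.05 in limma in some alternatives. AT3G50430 had -0.86 (adjusted p = 0.0181), and 0.0542 to 0.0616 without smd1b replicate 1 or 3 or prp39a replicate 1 or 2. AT3G60910, a methyltransferase family gene, had -0.83 (adjusted p = 0.0243), and 0.0588 to 0.0819 without smd1b replicate 1 or 2 or prp39a replicate 1 or 2. The heptahelical protein gene HHP3 had -0.73 (adjusted p = 0.0261), and 0.0562 to 0.0845 with any 1 smd1b library left out, or without prp39a replicate 1 or 2. BGLU9 had -1.23 (adjusted p = 0.0323), and 0.0587 to 0.0887 with any 1 smd1b library left out, or without prp39a replicate 2 or 3. AT5G61540 had -0.87 (adjusted p = 0.0492), and 0.0696 to 0.125 with any 1 library other than prp39a replicate 1 left out.

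With the 6 mutant libraries alone the limma adjusted p was 0.0526 for AT3G60910, 0.0568 for HHP3, 0.0693 for BGLU9 and 0.0998 for AT5G61540. With the replicate number as a block it was 0.0581 for HHP3, 0.0642 for BGLU9 and 0.0875 for AT5G61540. AT5G61540 also had 0.0592 with 1 TPM added in place of 0.5 and 0.06 with no filter on low values.

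Among totals, the 5 smallest adjusted p between the mutants belonged to AT4G36190 (0.99 on the log2 scale, prp39a minus smd1b), AT3G23480 (0.89), AT4G30310 (0.44), AT4G02550 (-0.43) and BGLU9 (-0.58).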

How the results depend on the processing

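The number of genes that met the rule, 70, became 175 with a fall of at least 10 points, 26 with at least 20 points and 35 with 0.5 TPM added to each isoform; the last lowers the shares of dominant isoforms in genes of low TPM by its construction. With each library left out in turn it was 65 to 90, with 56 to 68 of the 70 among them, and 36 genes met the rule in all of these. The lost isoforms called between the mutants were 13 with all libraries and 8 to 12 with 1 left out (8 without prp39a replicate 2), and the totals 23 and 13 to 24 (13 without smd1b replicate 3 or prp39a replicate 1). The median fall in smd1b, 18.9 points, was 18.7 to 20.3 with a library left out, and 20.3 without smd1b replicate 3. The causes were not tested. With the replicate number as a block, 11 isoforms and 18 totals were called. Same-numbered smd1b and prp39a libraries had correlations of their deviations of -0.00387, 0.287 and 0.00259, so the numbers were not taken as a pairing. Differently numbered libraries of these mutants had correlations from -0.421 (smd1b 2, prp39a 3) to 0.395 (smd1b 1, prp39a 3). Whether the libraries share another source of variation was not tested. Of 200 values for the 8 isoforms and 5 totals named by their test, 199 kept their direction and side of the threshold. These were named for the smallest adjusted p in the same data, which favoured that outcome in advance. Leaving out a wild-type library also cannot change a difference between the mutants, only its adjusted p. The calls not named in this way were less stable. Depth is unknown, so the precision of low isoforms cannot be given.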
